A study of Mus musculus with 5 samples.

Results

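The genes described here are 10 genes of NF-kB and Toll-like receptor signalling: Il1b, Tlr2, Tlr4, Myd88, Nfkb1, Nfkb2, Relb, Nfkbia, Tnfaip3 and Icam1. They were chosen by name from general knowledge of the pathway, with earlier results of these data known. All 10 were among the 11643 genes of the deposited table, and all 10 averaged 1 FPKM or more over the libraries, the level set for testing, which 10570 genes reached. FPKM is the number of sequenced fragments scaled to transcript length and to the library total, so levels can be compared between genes. RNA came from haematopoietic stem cells (HSCs) of C57BL/6 mouse bone marrow, sorted as lineage-negative, c-Kit+, Sca1+, CD150+ and CD48- cells. There were 3 control libraries, which the labels call control with a tag that begins VavC and is not explained. The other 2 were labelled Tle1/3/4-deficient, and in these Vav-Cre was used to delete the floxed Tle1, Tle3 and Tle4 genes. Vav-driven Cre acts in all blood lineages, stem cells included. TLE proteins are co-repressors that transcription factors recruit to DNA, and the series asks how their loss alters HSCs. The labels give no ages, and beyond that tag do not say whether the controls carried floxed alleles or Cre. Nor do they say whether replicates came from separate animals. The p-values therefore rest on the spread among these 5 libraries, and that spread may be technical.

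NF-kB is a family of dimeric transcription factors held in the cytoplasm by inhibitor proteins. Most Toll-like receptors, which sense microbial products, and the interleukin-1 receptor signal through the adaptor MyD88 to the IKK kinase complex, which marks the inhibitor for destruction and frees the dimers. A slower, non-canonical route processes the p100 precursor, encoded by Nfkb2, and releases its partner RelB. Several targets of the pathway are its own brakes, and HSCs are known to carry Toll-like receptors and to respond to inflammatory signals.

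The libraries need a short account first. Column sums were 599137 to 683822 FPKM. Absolute depth is unknown, since the table holds no counts. Relative to control replicate 1 it was estimated from few low values at up to 1.46. Between 656 and 1438 genes were listed at 0 in a library, some of them perhaps failed estimates. Tle3 went against the label, at 2.48, 4.97 and 5.61 FPKM in control replicates 1, 2 and 3 and at 32.3 and 31.6 FPKM in replicates 1 and 2 labelled deficient. Tle4 was at 5.67, 0.0129 and 5.29 FPKM in control HSCs and 0.353 and 0.203 FPKM in those labelled deficient. Tle1 was at 1.83, 0.811 and 3.33 FPKM against 2.84 and 4.37 FPKM. A gene-level value also counts exons that are not floxed, so these levels do not check the deletion, and every direction given here follows the labels. Deficient-labelled replicate 2 stood apart in neutrophil transcripts, as given with Il1b, and in Ly6a, which encodes Sca1, at 14.0 FPKM against 57.8 to 199 FPKM in the other libraries. All 8 HSC markers listed, among them Kit, Slamf1 and Procr, were in the table and summed to 657 to 779 FPKM in the controls and to 527 and 382 FPKM in the libraries labelled deficient.

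In the control HSCs the members spanned a wide range of levels. Nfkbia was the most abundant, at 168 ± 39.5 FPKM (SD, n = 3). Myd88 followed at 56.4 ± 5.12 FPKM. Icam1 (29.4 ± 3.20), Nfkb1 (27.6 ± 4.35) and Nfkb2 (24.3 ± 5.13 FPKM) came next and did not differ from one another beyond their spread. The same held for Relb (13.4 ± 2.14) and Tlr2 (11.9 ± 3.53 FPKM), and for Tlr4 (5.33 ± 0.275) and Tnfaip3 (4.61 ± 2.21 FPKM). Il1b was the lowest. In the libraries labelled deficient Nfkbia and Myd88 remained the 2 highest, at 164 ± 11.7 and 83.1 ± 23.3 FPKM (SD, n = 2), while the mean of Il1b, 31.2 ± 21.5 FPKM, ranked it 4 of the 10.

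**Figure D1:**
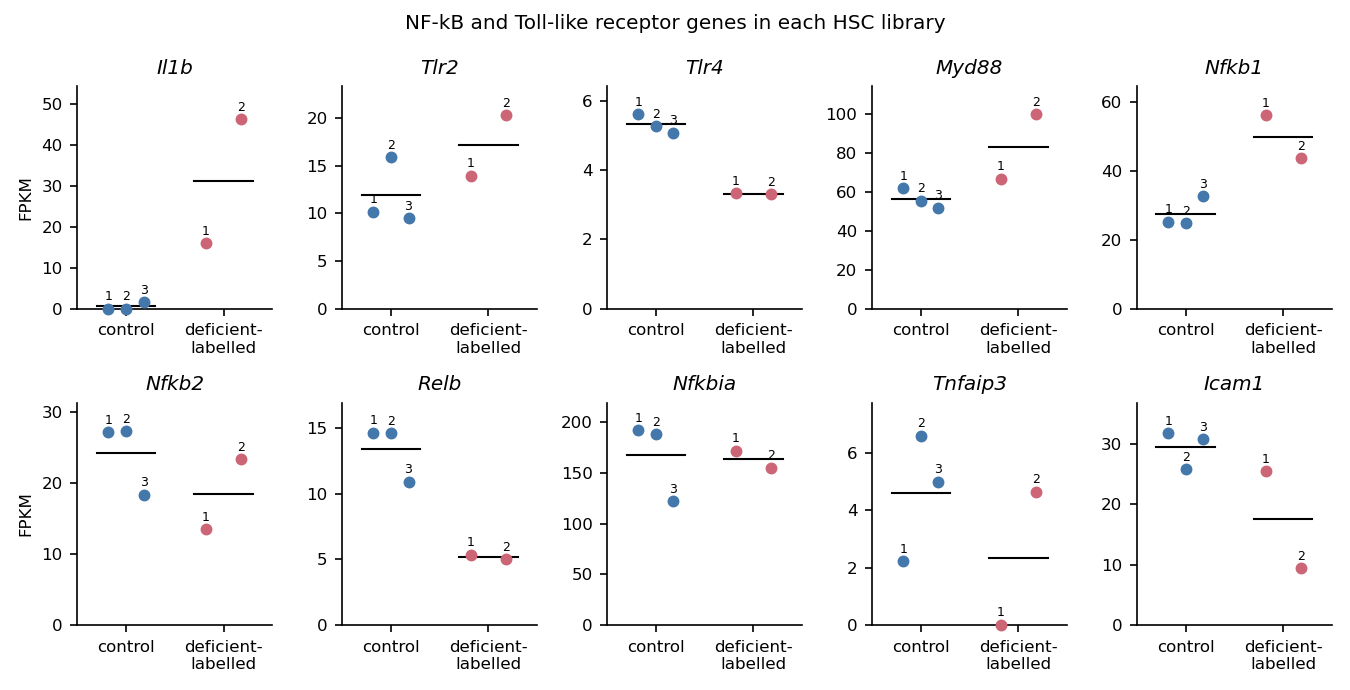
FPKM of each member in the 5 libraries, on linear axes from 0 with a separate scale per gene; points are libraries numbered by replicate and black lines are group means. Il1b, Myd88 and Nfkb1 lie above every control in the 2 libraries labelled deficient, and Tlr4, Relb and Icam1 below every control, though Icam1 no longer does so after median-of-ratios scaling.

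None of the 10 members passed the test over all genes (limma on log2(FPKM + 1), adjusted p of 0.345 to 0.996), in which 2 of 10570 genes (0.0189%) were called. In simulated data this test called only 2.99% of genes given a log2 change of 1, so changes of that size mostly go uncalled. Those genes were all more abundant in controls than Il1b, Tlr4 and Tnfaip3, so the rate does not cover these 3 members. At an unadjusted p under 0.05 there were 2 members, Il1b and Nfkb1, both higher, against 8.45% of all genes (3.26% higher and 5.18% lower). In 6 of 10 members the groups did not overlap, 3 with both libraries labelled deficient above every control and 3 below, against 26.1% of all genes tested (10.2% above and 15.9% below). After median-of-ratios scaling, tried here after the data were seen, Icam1 overlapped, leaving 5 of 10 members (3 above and 2 below) against 26.1% of all genes. The members thus did not lie in 1 direction. They were chosen with earlier results of these data known, and Il1b reached the level for testing only through the libraries labelled deficient. These shares are therefore a description only. Their median log2 fold change was -0.21, beside -0.10 for all genes tested, and ranged from -0.40 (without control replicate 3) to 0.034 (without deficient-labelled replicate 1) when each library was left out. Median-of-ratios scaling of the libraries moved the median of all genes to 0.014 and that of the members to -0.08, and left each member on its side of 0 except Nfkbia.

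The ligand Il1b encodes interleukin-1 beta, an inflammatory cytokine made mainly by activated myeloid cells. It was listed at 0, 0 and 1.501 FPKM in control replicates 1, 2 and 3 and stood at 16.003 and 46.4 FPKM in replicates 1 and 2 labelled deficient. The groups did not overlap, and the lower deficient-labelled library was still far above the highest control. The log2 fold change was 4.39 (SE 0.849, 95% interval 2.41 to 6.37) on the log2(FPKM + 1) scale and missed the threshold over all genes (limma, adjusted p = 0.345). With 2 controls listed at 0 its size depends on the pseudocount, reaching 6.76 with a pseudocount of 0.1. It fell to 3.65 when deficient-labelled replicate 2 was left out and was 5.12 without replicate 1. The Il1b locus also overlaps an annotated antisense gene, Il1bos, and whether counting used strand is not given in the sources used here.

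Markers of several other cell types had higher summed levels in the same libraries, though none of these genes passed over all genes (limma, lowest adjusted p = 0.345). The 11 neutrophil markers in the table, of 12 listed, summed to 293 to 2608 FPKM in the controls and to 10804 and 65581 FPKM in replicates 1 and 2 labelled deficient, with all 11 above every control in both, against 10.2% of all genes tested. The 11 of 12 monocyte and macrophage markers summed to 22.6 to 108 FPKM against 197 and 886 FPKM, 5 of them above every control. The 5 megakaryocyte and platelet markers summed to 421 to 1055 FPKM against 7937 and 3478 FPKM, 4 of them above every control. The 3 of 5 erythroid markers summed to 9.27 to 24.8 FPKM against 79.2 and 173 FPKM, 2 of them above every control. The 2 of 6 T and NK cell markers, Nkg7 and Klrb1c, summed to 34.0 to 105 FPKM against 349 and 195 FPKM, both above every control. Nkg7 made up nearly all of that sum, at 345 and 193 FPKM in replicates 1 and 2 labelled deficient. The T cell genes listed, Cd3e, Cd3d, Cd3g and Trbc2, were not in the table. The sums of other lists exceeded the controls only in deficient-labelled replicate 2, though single genes differed in both. The 5 myeloid precursor markers summed to 288 to 462 FPKM in the controls and to 456 and 3200 FPKM in replicates 1 and 2 labelled deficient. Of these, 2 lay above every control, Prtn3 and Ms4a3, and Prtn3 made up 450 FPKM of the replicate 1 sum. The B cell markers summed to 48.8 to 59.5 FPKM against 16.4 and 119 FPKM, none of them above or below every control. Dendritic cell markers summed to 14.0 to 30.2 FPKM against 10.8 and 31.5 FPKM, with Flt3 below every control. Endothelial and stromal markers summed to 34.7 to 42.9 FPKM against 22.2 and 62.6 FPKM. Of these, Cxcl12 and Kdr lay above every control, Kdr at under 1 FPKM throughout, and Emcn lay below. Of the monocyte markers, Fcgr1 was listed at 0 in every library but deficient-labelled replicate 2, where it was at 1.74 FPKM. Among the genes nearest to Il1b in profile over the 5 libraries were Chil1 and Pilrb2, at distances of 0.541 and 0.926 on the centred log2(FPKM + 1) scale. Chil1, a secreted chitinase-like protein, was at 0.0440, 0.158 and 1.45 FPKM in control HSCs and 11.6 and 54.9 FPKM in those labelled deficient. Some of these markers were abundant in the control HSCs as well, Pf4 at 839, 512 and 255 FPKM and Prtn3 at 280, 377 and 411 FPKM. The sums are therefore not a measure of other cells alone. In bulk RNA, more cells of a type and more RNA per cell cannot be told apart. The part of any of these cell types in the Il1b difference was not tested.

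**Figure D2:**
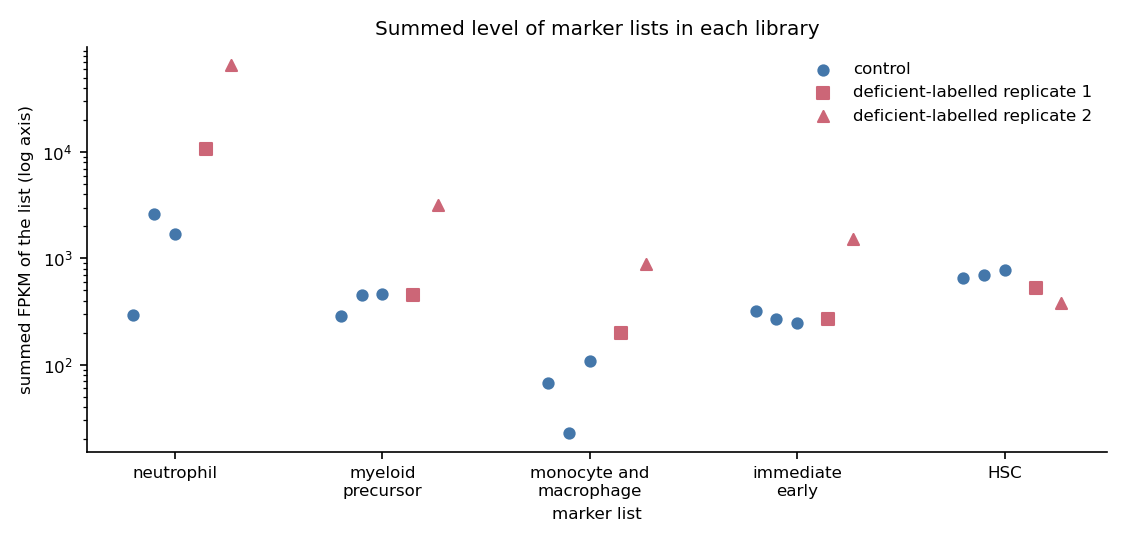
Summed FPKM of 5 marker lists in each library on a log axis; circles are controls, the square and triangle are deficient-labelled replicates 1 and 2. Neutrophil sums lie at 10804 and 65581 FPKM in those labelled deficient, above the highest control at 2608 FPKM, and HSC sums lie below every control.

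The receptors lay on opposite sides of the controls, neither past the threshold. Tlr2, the receptor for bacterial lipoproteins, was at 10.2, 15.9 and 9.49 FPKM in control HSCs and 13.9 and 20.3 FPKM in those labelled deficient, so that the groups overlapped. Its log2 fold change was 0.51 (95% interval -0.695 to 1.71; limma, adjusted p = 0.807). Tlr4, the receptor for bacterial lipopolysaccharide, was at 5.63, 5.28 and 5.09 FPKM in control HSCs and 3.34 and 3.30 FPKM in those labelled deficient. The libraries of each group lay close together and the groups did not overlap, the control mean being 1.61 times the deficient-labelled mean. At these low levels the moderated spread was wide, and Tlr4 did not pass (log2 fold change -0.55, 95% interval -2.09 to 0.989; limma, adjusted p = 0.837).

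The adaptor gene Myd88, whose product links the receptors to the IRAK kinases, was at 61.9, 55.3 and 51.8 FPKM in control HSCs and 66.6 and 99.6 FPKM in those labelled deficient. Both lay above every control, replicate 1 only slightly. The log2 fold change was 0.53 (95% interval -0.203 to 1.26; limma, adjusted p = 0.673). With deficient-labelled replicate 2 left out it was 0.24, and 0.82 without replicate 1, so that the difference was larger in replicate 2. The Myd88 locus overlaps 2 annotated protein-coding genes, Acaa1a on the opposite strand and Slc22a14.

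The 3 Rel-family members diverged. Nfkb1, which encodes p105, the precursor of the p50 subunit, was at 25.2, 24.9 and 32.6 FPKM in control HSCs and 56.2 and 43.7 FPKM in those labelled deficient. Every deficient-labelled library was above every control, and the mean was 1.81 times the control mean. Its log2 fold change was 0.83 (SE 0.353, 95% interval 0.0105 to 1.66), with an unadjusted p of 0.0478 that did not survive adjustment over all genes (limma, adjusted p = 0.585). Relb, which encodes the main partner of p52 in the non-canonical route, lay the other way, at 14.7, 14.6 and 10.9 FPKM against 5.37 and 5.01 FPKM. The control mean was 2.58 times the deficient-labelled mean and the groups did not overlap (log2 fold change -1.21, SE 0.550, 95% interval -2.49 to 0.0757; limma, adjusted p = 0.61). Unlike Il1b, Myd88 and Icam1, Relb stood at nearly the same level in both libraries labelled deficient. Its log2 fold change was -1.25 without replicate 1 and -1.17 without replicate 2. Nfkb2, which encodes p100, was at 27.2, 27.4 and 18.4 FPKM in control HSCs and 13.5 and 23.4 FPKM in those labelled deficient. Those groups overlapped (log2 fold change -0.40, 95% interval -1.46 to 0.653; limma, adjusted p = 0.825). Without deficient-labelled replicate 1 the Nfkb2 value was -0.03, and without replicate 2 it was -0.78. Nfkb1 and Nfkb2 each overlap other annotated genes, while Relb, Tlr2, Tlr4, Nfkbia and Tnfaip3 overlap none.

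**Figure D3:**
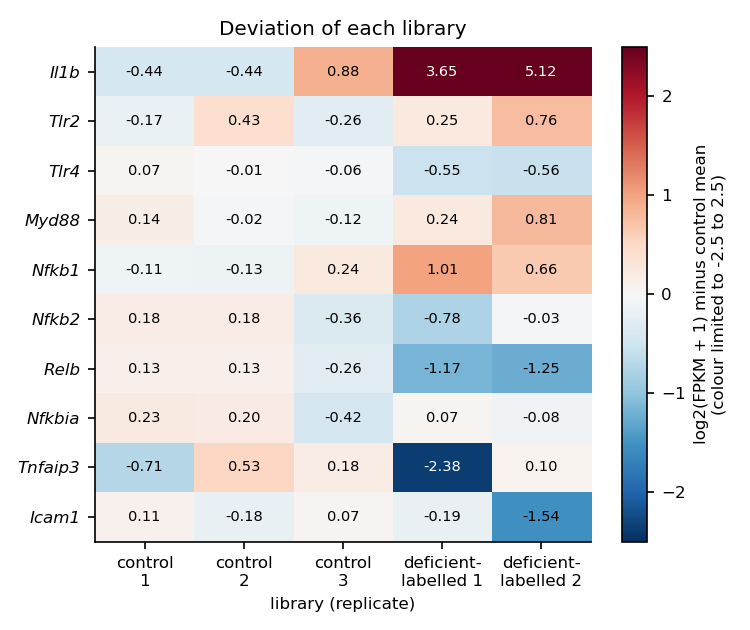
Deviation of each library from the control mean of each member, in log2(FPKM + 1); rows are genes, columns are libraries, red is above and blue below the control mean. Relb lies at -1.17 and -1.25 in replicates 1 and 2 labelled deficient, whereas Tnfaip3 lies at -2.38 in replicate 1 and 0.10 in replicate 2, and Icam1 at -0.19 and -1.54.

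The inhibitor genes are classic feedback targets of NF-kB. Nfkbia encodes IkB-alpha, which retains NF-kB in the cytoplasm and is resynthesised after each round of activation. It was at 193, 188 and 122 FPKM in control replicates 1, 2 and 3 and at 172 and 155 FPKM in those labelled deficient, both within the control range. Its log2 fold change was -0.01 with a 95% interval of -0.699 to 0.684 (limma, adjusted p = 0.996), and it turned to 0.12 under median-of-ratios scaling. The genes nearest to Nfkbia in profile were Metrn, Ptdss2 and Rffl, at distances of 0.124, 0.164 and 0.175. Tnfaip3 encodes A20, a ubiquitin-editing enzyme that shuts off signalling to IKK. It was at 2.23, 6.60 and 5.001 FPKM in control HSCs and 0.0141 and 4.65 FPKM in replicates 1 and 2 labelled deficient. The 2 libraries labelled deficient therefore disagreed, with replicate 1 nearly empty and replicate 2 inside the control range. The log2 fold change of -1.14 (95% interval -3.4 to 1.11; limma, adjusted p = 0.757) became 0.10 without replicate 1 and -2.38 without replicate 2.

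The target gene Icam1 encodes an adhesion molecule of leukocytes and endothelium that NF-kB induces. It was at 31.7, 25.7 and 30.7 FPKM in control HSCs and 25.5 and 9.42 FPKM in those labelled deficient. Replicate 1 lay just under the lowest control, or within the control range after median-of-ratios scaling, and replicate 2 far below it. The log2 fold change was -0.87 (95% interval -2.03 to 0.302; limma, adjusted p = 0.668). With deficient-labelled replicate 2 left out it was -0.19, and -1.54 without replicate 1. Icam1 overlaps an annotated antisense gene, Gm47079.

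**Figure D4:**
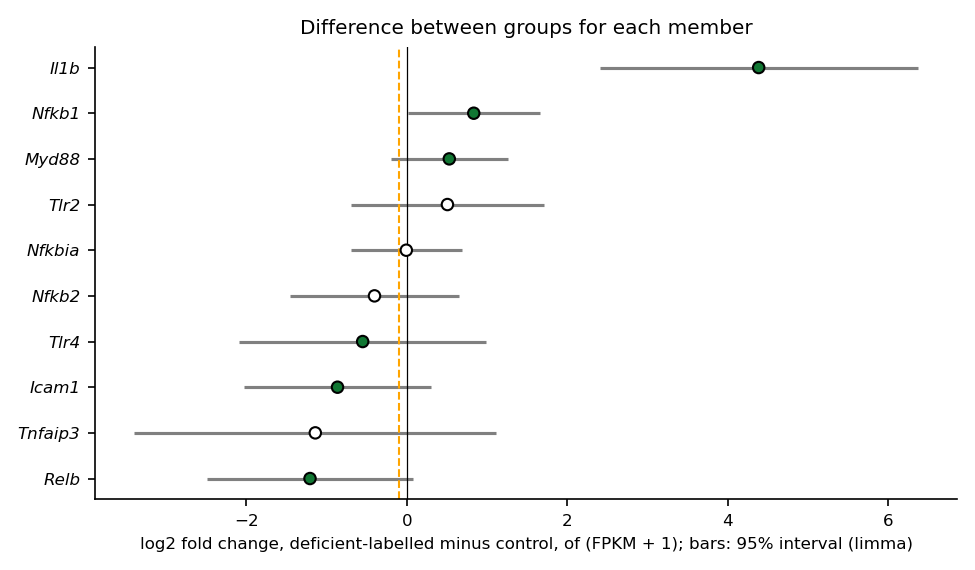
Log2 fold change of each member on the log2(FPKM + 1) scale, deficient-labelled minus control, with 95% intervals from limma; filled points are members whose groups did not overlap as deposited, and the dashed line is the median of all genes tested, -0.10. The intervals of Il1b (2.41 to 6.37) and Nfkb1 (0.0105 to 1.66) lie above 0, unadjusted for the number of genes.

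The promoters of the members can be set beside these values, because NF-kB is known to regulate several of the genes directly. RefSeq promoter windows of GRCm38.p6, from 250 bases before to 50 after a start site, were found for 7 of the members, in 10 windows. They were searched on both strands for the kB consensus GGGRNWYYCC, a 10-base form of the motif bound by NF-kB dimers. In it R is A or G, W is A or T, Y is C or T and N is any base. A match was present in at least 1 window of 4 of these 7 genes, Nfkbia, Tnfaip3, Nfkb2 and Tlr2. Nfkb2 has 3 windows, of which 2 overlap and share a match, so windows are not separate counts. Of all 32851 windows of the same length, 4.51% held a match, as did 5.12% of the windows of tested genes. These are shares of windows, whereas the 4 of 7 counts genes. Counted by gene, 494 tested genes had a match and 7664 had none. The windows of Il1b, Myd88 and Icam1 held no match to this pattern. The Icam1 window does hold TGGAAATTCC, which departs from the pattern only at its first base. Near matches were not searched for, so a window without a match may still hold a site. The windows of both inhibitor genes, of Nfkb2 at its most upstream start site and of Il1b are shown because they contrast the feedback genes with the member that differed most. They lie at chr12:55492598-55492897 (Nfkbia, minus strand), chr10:19015361-19015660 (Tnfaip3, minus strand), chr19:46304487-46304786 (Nfkb2, plus strand) and chr2:129371090-129371389 (Il1b, minus strand), and capitals mark the matches.
Nfkbia: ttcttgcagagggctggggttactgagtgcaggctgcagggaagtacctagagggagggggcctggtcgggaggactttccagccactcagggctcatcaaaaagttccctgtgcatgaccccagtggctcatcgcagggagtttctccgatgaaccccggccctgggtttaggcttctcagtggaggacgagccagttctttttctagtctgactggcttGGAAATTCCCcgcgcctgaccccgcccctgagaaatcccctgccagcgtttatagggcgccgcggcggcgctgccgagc
Tnfaip3: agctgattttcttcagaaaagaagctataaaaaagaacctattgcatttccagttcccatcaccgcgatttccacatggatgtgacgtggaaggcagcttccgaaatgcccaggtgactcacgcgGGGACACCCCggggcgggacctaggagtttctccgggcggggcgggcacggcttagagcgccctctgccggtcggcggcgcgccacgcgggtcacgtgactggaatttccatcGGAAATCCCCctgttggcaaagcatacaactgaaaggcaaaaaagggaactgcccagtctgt
Nfkb2: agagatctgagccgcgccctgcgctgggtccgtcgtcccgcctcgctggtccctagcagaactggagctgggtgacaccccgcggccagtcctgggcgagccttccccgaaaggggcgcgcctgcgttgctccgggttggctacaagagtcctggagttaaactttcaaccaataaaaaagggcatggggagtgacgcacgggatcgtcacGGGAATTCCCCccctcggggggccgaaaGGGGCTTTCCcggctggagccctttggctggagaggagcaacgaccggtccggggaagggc
Il1b: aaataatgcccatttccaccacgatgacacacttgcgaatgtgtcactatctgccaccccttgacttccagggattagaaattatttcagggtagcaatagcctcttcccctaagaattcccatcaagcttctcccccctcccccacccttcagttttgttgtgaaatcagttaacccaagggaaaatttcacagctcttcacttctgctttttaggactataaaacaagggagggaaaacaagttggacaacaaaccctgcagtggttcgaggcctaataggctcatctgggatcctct
In Nfkbia the match GGAAATTCCC, which reads GGGAATTTCC on the other strand, began 29 bases before the start site. Tnfaip3 had matches beginning 125 and 12 bases before it. Nfkb2 had overlapping matches beginning 39 and 38 bases before it and another at 11 bases. All 4 members with a match had overlapping groups, while the groups of the 3 searched without one did not overlap, except for Icam1 after scaling. Over all genes tested the groups did not overlap in 28.1% of 494 genes with a match and in 26.1% of 7664 without, so the contrast among 7 members is a description of those genes only. A match is not evidence of binding in these cells.

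Other genes of the pathway, 108 listed by role from general knowledge with earlier results of these data known, were read from the same fit. The table held 77, of which 71 reached the level for testing. None passed (limma, lowest adjusted p = 0.433), and at an unadjusted p under 0.05 there were 4 higher and 5 lower of 71, against 3.26% higher and 5.18% lower of all genes. Groups did not overlap in 17 of 71 (23.9%), close to the 26.1% of all genes. Their median log2 fold change was 0.06, with 36 positive and 35 negative, and ranged from -0.08 (without control replicate 2) to 0.16 when each library was left out. Over all genes tested 4682 values were positive and 5888 negative, beside which the counts by role below can be set.

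Of 8 ligands listed only 3 were in the table, and all 3 were tested and had negative values. The ligand Il1b, at 4.39, is a member and not counted among them. Ltb encodes lymphotoxin beta, a ligand that engages the non-canonical route in which Relb acts. It was at 222, 174 and 224 FPKM in control HSCs and 117 and 95.5 FPKM in those labelled deficient, all below every control (log2 fold change -0.95, SE 0.267; limma, adjusted p = 0.439). Il18 was at 23.3, 46.4 and 21.0 FPKM against 13.6 and 10.8 FPKM (limma, adjusted p = 0.587). Tnfsf11 was at 4.05 FPKM or less in every library. Of 11 receptors and co-receptors tested, 5 had positive and 6 negative values (median -0.01), or 7 and 4 after median-of-ratios scaling. In 3 of them both libraries labelled deficient lay above every control. These were Cd14, given below, and Il1r1 and Ly86, named after their values were seen. The receptor of lymphotoxin, Ltbr, had overlapping groups, at 31.4, 11.5 and 12.8 FPKM against 26.99 and 21.8 FPKM. The tumour necrosis factor receptors Tnfrsf1a and Tnfrsf1b had overlapping groups too, at 61.9 ± 16.8 against 48.3 ± 5.38 FPKM and 16.7 ± 5.17 against 15.2 ± 4.81 FPKM (SD, n = 3 and 2). Cd14, the lipopolysaccharide co-receptor of monocytes, named after its values were seen, was listed at 0 in all 3 controls and was at 5.98 and 8.10 FPKM in those labelled deficient (limma, adjusted p = 0.433). Cd14 thus reached the level for testing only through the libraries labelled deficient.

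Of 27 adaptors, kinases and ubiquitin ligases tested, 10 had positive and 17 negative values, with a median of -0.18 (-0.07 after median-of-ratios scaling). The most abundant were Rbck1 and Sharpin, subunits of the linear ubiquitin ligase, and the receptor adaptor Tradd. Rbck1 was at 127 ± 26.7 FPKM in controls against 188 ± 72.5, Sharpin at 62.95 ± 9.73 against 58.1 ± 17.6, and Tradd at 54.6 ± 6.11 against 49.9 ± 26.3 FPKM (SD, n = 3 and 2). All 3 had overlapping groups. Ikbke, an IKK-related kinase named after its values were seen, had the lowest unadjusted p of the role. It was at 17.3, 14.5 and 13.5 FPKM in control HSCs and 2.78 and 2.53 FPKM in those labelled deficient, the control mean being 5.69 times the other (log2 fold change -2.13, SE 0.575; limma, adjusted p = 0.433). As with Relb, both libraries labelled deficient stood at nearly the same low level.

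The remaining Rel-family genes had overlapping groups. Rela, which encodes p65, was at 75.1 ± 16.1 FPKM in controls and 63.0 ± 13.5 FPKM in those labelled deficient (SD, n = 3 and 2; limma, adjusted p = 0.855). Rel was at 3.75, 10.1 and 10.5 FPKM against 0.0735 and 6.73 FPKM. Inhibitors and negative regulators had 13 positive and 4 negative values (median 0.24). Nfkbib, which encodes IkB-beta, was at 55.8, 32.7 and 25.7 FPKM in control HSCs and 84.3 and 68.1 FPKM in those labelled deficient, the mean being 2.002 times the control mean (limma, adjusted p = 0.546). Its locus overlaps Ccer2 and Sirt2 on the opposite strand. Tax1bp1, an A20 partner, also lay above every control, at 100.5 ± 25.3 against 153 ± 18.9 FPKM (SD, n = 3 and 2; limma, adjusted p = 0.621).

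Targets had 8 positive and 3 negative values (median 0.44), and none of the 11 passed. Single libraries set several of the values. Sod2, the mitochondrial superoxide dismutase, was at 29.5 to 35.3 FPKM in control HSCs and 125 and 25.3 FPKM in replicates 1 and 2 labelled deficient. The mRNA decay factor Zfp36, an inhibitor on the list, was at 21.3 to 62.1 FPKM in control HSCs and 12.4 and 295 FPKM in the same 2 libraries. In the same replicate 2, the 8 immediate early genes in the table, of 9 listed, summed to 1534 FPKM, against 247 to 322 FPKM in the controls and 268 FPKM in replicate 1; their part in the Zfp36 value was not tested. Ier3 was at 45.3 ± 27.9 against 37.9 ± 28.1 FPKM and the chemokine Ccl4 at 45.1 ± 9.18 against 37.1 ± 0.777 FPKM (SD, n = 3 and 2), with overlapping groups.

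**Figure D5:**
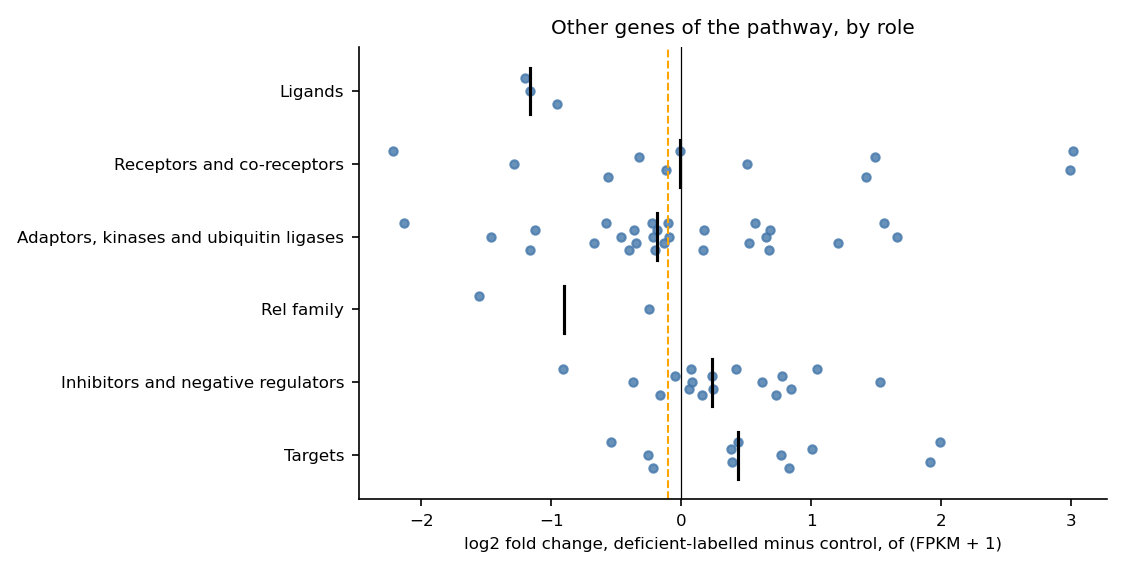
Log2 fold change, on the log2(FPKM + 1) scale, of the 71 other pathway genes tested, by role; points are genes, black bars are medians and the dashed line is the median of all genes tested, -0.10. The 3 ligands tested, which leave out the member Il1b, have a median of -1.16, and inhibitors (0.24) and targets (0.44) have medians above 0. No gene is past the threshold.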

How the data were processed

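RNA-seq was analysed in 5 libraries of sorted mouse HSCs, grouped by their sample titles. The authors deposited FPKM values by gene symbol. Per the submitters' processing notes the build was mm9 and the tools were TopHat and edgeR, with no version or role; annotation, FPKM tool and strand handling: not given in the sources used here. Since FPKM is relative to the library total, very abundant transcripts lower all others. Genes averaging 1 FPKM or more were compared between groups by limma 3.58.1 (R 4.3.3), after log2(FPKM + 1), with a trended eBayes, no covariate and two-sided p-values (Benjamini-Hochberg over all genes, threshold 0.05). This scale understates the change of low genes. The test was checked on simulated data. It called 2.99% of 67 genes given a log2 change of 1, 43.3% of 67 at 2 and 81.8% of 66 at 4. These changes were given only to genes above a control level that Il1b, Tlr4 and Tnfaip3 did not reach. The simulated noise of each gene was normal, with the same spread in both groups. The members and lists were chosen with earlier results of these data known. Named are all members, the 3 most abundant tested genes of each role, as none passed, and the 3 genes nearest in profile to Nfkbia and to Il1b, 1 of which is not reported here; other genes are markers or are said to be named after their values were seen. Alternatives covered pseudocount, filter, scaling, eBayes settings, array weights, the replicate block and leaving out each library. Overlaps between loci were looked up by symbol in GENCODE M21, a later build.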

Additional observations from a re-analysis of the deposited data

How the results depend on the processing

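No member and no other pathway gene passed the threshold with all libraries, or under any of the 15 alternatives run. The count over all genes, 2 as reported, was 0 with array weights, with pseudocounts of 0.1 or 0.5 and without the filter, 1 without trend, 4 with median-of-ratios scaling, 5 with robust fitting and 0 to 5 when each library was left out (0 without control replicate 2 or deficient-labelled replicate 2, 1 without control replicate 1, 5 without control replicate 3). With the replicate number as a block it was 22, and the members' median was -0.40. Same-numbered libraries deviated from their group means with correlations of only 0.0352 and 0.00687 and the labels give no pairing, so the libraries share only a number. The members' median log2 fold change, -0.21 as reported, was -0.082 with array weights and -0.080 with median-of-ratios scaling, 0.25 with a mean of at least 5 FPKM, where only 8 members were tested (Tlr4 and Tnfaip3 gave no value), and -0.40 to 0.034 when each library was left out. Nfkbia changed sign with array weights (0.13) and median-of-ratios scaling (0.12), and ranged from -0.22 to 0.11 when each library was left out. Tnfaip3 ranged from -2.38 to 0.10 when each library was left out. The cause was not tested. The other 8 members kept their direction under every alternative that gave a value. Leaving out a deficient-labelled library leaves 1, assumed to vary like the controls. The files give no counts, so counting error is unknown.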

Other observations

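Some pathway genes, named here after their values were seen, were near 0 in a single library. Tnfaip3, Rel, Irak2 and Ly96 were each under 0.1 FPKM in deficient-labelled replicate 1 and above 2 FPKM in the other 4 libraries. Irak2, a kinase recruited by MyD88, was at 7.08, 9.90 and 6.97 FPKM in control HSCs and 0.0614 and 8.85 FPKM in replicates 1 and 2 labelled deficient. Ly96, which encodes the Tlr4 co-receptor MD-2, was at 5.21, 22.4 and 14.4 FPKM against 0 and 6.90 FPKM. Over all genes, 182 of 11643 showed this in deficient-labelled replicate 1, and 76 to 164 in each control. In deficient-labelled replicate 2 it was 93 genes, none of them a member or on the pathway list. Single controls held such pathway genes too, Gadd45b in control replicate 1, Ccl5 and Rnf11 in control replicate 2 and Rnf31 in control replicate 3. The cause was not tested.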
